A study of Mus musculus with 2 samples.

Results

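The genes described here are the AP-1 transcription factor subunits Fos, Jun, Junb and Jund, their partners Maff and Atf3, the immediate early regulators Ier2 and Egr1, and the dual-specificity phosphatases Dusp1 and Dusp6. They were chosen by name, with earlier results of these data known, and all 10 were found among the 11349 protein-coding genes of the table. RNA was sequenced from 2 libraries of mouse macrophages, phagocytic immune cells collected from the abdominal cavity as primary cells. The WT group is 1 library of wild-type cells, described as C57 in its label and column name, and the knockout group is 1 library of cells labelled TREM-2-/- in the sample title and as a knockdown in the genotype field. Both groups had received TGF-β1, a growth factor of wound repair and scarring, for 24 h, so no library without TGF-β1 was analysed here. The labels used here give no strain name for the knockout cells. The sources used here give neither the number and age of the mice behind a library nor whether cells were pooled. The stated question is how gene expression changes with loss of Trem2, in a study of exosomes and kidney fibrosis. With 1 library per group there is no replicate and no test, and every difference below describes these libraries only.

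AP-1 is a family of dimers that bind DNA through a basic leucine zipper. Fos proteins need a partner such as a Jun or a Maf protein. Jun proteins can also pair with each other and with ATF and Maf relatives. Many of the genes are immediate early genes, switched on within minutes of a signal without new protein synthesis, and their transcripts are usually short-lived. The ERK, JNK and p38 kinases drive much of this induction, and the dual-specificity phosphatases, themselves induced by it, take the phosphates off those kinases again. In macrophages the genes are known for their response to growth factors, microbial products and attachment to a surface.

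Values are FPKM, fragment counts divided by gene length and library size, so levels can be compared between genes per unit length. Trem2, the targeted gene, a lipid-sensing receptor, was at 135 FPKM in the WT library against 13.7 FPKM in the knockout library, and its adaptor Tyrobp was at 1021 and 1194 FPKM. The depth was estimated from the steps between low values, with 300 steps assumed per fragment, at 13.5 M (WT) and 12.4 M (knockout) fragments. Each interval below is a 95% interval of a ratio of libraries (exact, Clopper-Pearson), which rests on this estimate and covers counting error only. The fold change used for sorting genes is log2((knockout FPKM + 1)/(WT FPKM + 1)), and a gene counted as higher or lower at 2-fold or more on that scale, among the 9962 genes whose mean reached 1 FPKM. As deposited, 3.48% of these genes were higher and 13.7% lower in the knockout library. The median of all these genes lay at -0.31, and relative to that value, called the median gene below, 7.66% were higher and 6.57% lower.

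The macrophage label was checked against defining markers. Lyz2 was at 7962 FPKM in WT against 10171 FPKM in the knockout, Cd68 at 1169 and 1512 FPKM, Adgre1 (F4/80) at 133 and 148 FPKM, and Csf1r at 46.1 and 53.1 FPKM. Of 12 macrophage markers, all listed, 4 were lower and 0 higher, and the transcription factor of resident cavity macrophages, Gata6, went from 14.0 to 2.67 FPKM. Fibroblast and pericyte markers were listed in 8 of 10 and summed to 237 FPKM in WT against 408 FPKM in the knockout, with 3 higher and 1 lower. The sum followed the collagen genes Col1a1 (48.1 and 171 FPKM) and Col1a2 (50.6 and 108 FPKM), whereas Pdgfra (29.3 and 6.0 FPKM) and Dcn (71.4 and 48.9 FPKM) were at lower levels in the knockout library. Mesothelial and epithelial markers were listed in 8 of 10 (19.5 and 6.44 FPKM in sum). Endothelial markers were listed in 2 of 7 (5.92 and 1.41 FPKM), mast cell markers in 3 of 6 (10.9 and 2.67 FPKM) and neutrophil markers in 4 of 8 (52.9 and 25 FPKM). T and NK cell markers were listed in 2 of 10 (2.33 and 2.45 FPKM), B cell markers in 3 of 7 (9.59 and 10.6 FPKM) and dendritic cell markers in 1 of 7 (1.72 and 0.666 FPKM). The defining genes Cd3e, Ms4a1, Pecam1, Cdh5, Kit, Ly6g, Epcam and Flt3 were not among the listed genes. Mitochondrially encoded genes were lower in 11 of 13, and Hspa1a, an inducible HSP70 chaperone gene, was at 2.42 and 486 FPKM. The part of any of these in the differences below was not tested.

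Promoter stretches are shown for the members that stood furthest apart between the libraries and for Dusp1, because these genes are known to be switched on through short elements close to the start site. All are bases just upstream of the transcription start from RefSeq on GRCm38.p6, read 5′ to 3′ on the gene's strand. Capitals mark TGACG, the core of the cyclic AMP response element (CRE), and its full palindrome TGACGTCA, which holds the core on both strands. In Fos they also mark TATAAA, and in Dusp6 the CCAAT box, which lies on the opposite strand and reads ATTGG.
Fos, chr12:85473760-85473889, + strand: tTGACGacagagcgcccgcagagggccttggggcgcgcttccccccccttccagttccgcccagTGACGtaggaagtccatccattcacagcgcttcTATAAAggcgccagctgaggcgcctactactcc
Dusp1, chr17:26508473-26508632, - strand: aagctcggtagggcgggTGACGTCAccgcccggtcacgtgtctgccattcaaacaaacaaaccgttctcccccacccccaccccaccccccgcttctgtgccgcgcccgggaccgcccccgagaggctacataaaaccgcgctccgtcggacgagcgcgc
Maff, chr15:79347410-79347519, + strand: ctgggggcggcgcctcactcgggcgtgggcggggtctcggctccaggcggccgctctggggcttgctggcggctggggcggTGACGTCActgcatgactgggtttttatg
Dusp6, chr10:99263121-99263230, + strand: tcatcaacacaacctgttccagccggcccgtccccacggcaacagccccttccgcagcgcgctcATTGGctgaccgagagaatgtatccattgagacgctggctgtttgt

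Promoter windows, 250 bases before to 50 after the start, were at hand for 8 of the 10 members. Ier2 and Egr1 had no window at hand. Maff had several starts, and both strands were searched. Members were searched at each of their starts, whereas the shares of promoters given beside them take only the first start of each gene. The full CRE occurred in 2 of the 8, Dusp1 and Maff, against 3.31% of 8889 promoters of listed genes. Dusp1 and Maff differed in opposite directions. The core TGACG occurred in 5 of the 8, Fos, Junb, Atf3, Dusp1 and Maff, against 32.5% of promoters. CCAAT occurred in 4 of the 8 (39.1% of promoters), the GC box GGGCGG in 5 (65.8%), TATAAA in 2 (6.75%) and the heat-shock element GAANNTTC in 1, Jun (5.64%). The AP-1 site TGANTCA (4.95%) and the CArG box bound by SRF (1.28%) were in none of these windows. This says only that the letters are not there. Bases further upstream, and the promoters of Ier2 and Egr1, were not searched.

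**Figure D1:**
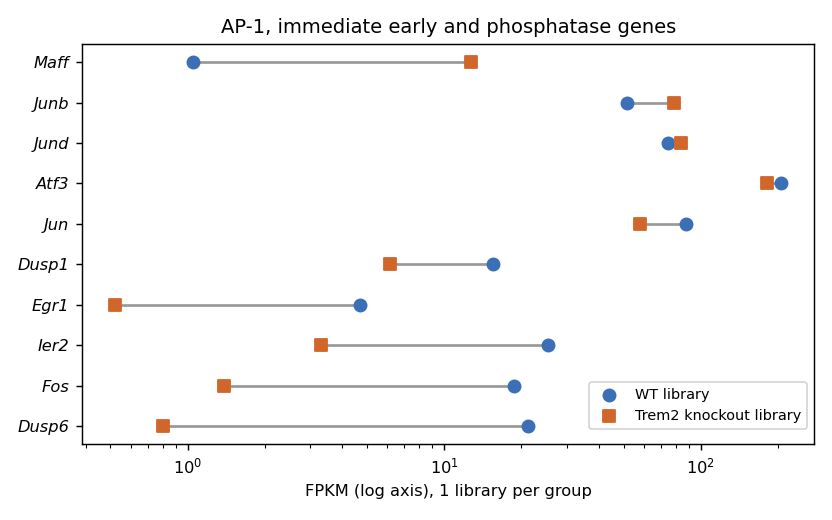
Level of each member in the WT library (blue circles) and the Trem2 knockout library (orange squares), in FPKM on a log axis, with 1 library per group and genes ordered by log2 fold change. Dusp6, Fos, Ier2, Egr1 and Dusp1 sit lower in the knockout library, Maff sits higher, and Jun, Junb, Jund and Atf3 lie close together at high levels.

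Of the 10 members, all with a mean above 1 FPKM, 5 stood 2-fold or more lower in the knockout library, 1 was higher and 4 lay within 2-fold. Relative to the median gene 4 were lower and 1 higher. The background shares stand above, and since the members were chosen with these values known nothing is read from the comparison. The members spanned 6.36 on the log2 scale, from -3.62 for Dusp6 to 2.74 for Maff, while the middle 50% of all genes lay between -0.73 and 0.13.

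Fos, the founding Fos subunit, was at 18.7 FPKM in the WT library against 1.38 FPKM in the knockout library. The knockout library was low, 13.6-fold under WT (interval 9.91 to 19.3), on an estimated 593 and 40 fragments. In bulk RNA, fewer cells of a type and less RNA per cell cannot be told apart, here and in the results that follow. On the log2(FPKM + 1) scale Fos stood at -3.05, and 17 of the 9962 genes stood lower. The table places it on chromosome 12, bases 85473890 to 85477273 of mm10, + strand (ENSMUSG00000021250.13).

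The other Fos family genes were also below WT in the knockout library. Fosl2 (Fra-2), which lasts longer after a stimulus, was at 5.6 and 3.44 FPKM, a log2 fold change of -0.57. Fosl1 (Fra-1) was at 1.43 and 0.127 FPKM and its mean was below 1 FPKM, so it was not counted. Fosb was not among the listed genes. Summed, the family went from 25.7 FPKM in WT to 4.94 FPKM in the knockout, and its makeup turned over. Fos made up 72.7% of the sum in WT and 27.9% in the knockout, whereas Fosl2 made up 21.8% and 69.5%.

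The Jun genes showed no such difference. Jun, the stress-responsive subunit phosphorylated by JNK, was at 87.8 FPKM in WT against 57.9 FPKM in the knockout, which was 1.52-fold lower (interval 1.44 to 1.60). Junb, often induced together with Fos, was at 51.7 and 78.4 FPKM, 1.52-fold higher in the knockout library (interval 1.42 to 1.62). Jund, the more constantly expressed subunit, was at 74.8 and 84.0 FPKM, 1.12-fold higher (interval 1.05 to 1.20). On the log2(FPKM + 1) scale they stood at -0.59, 0.59 and 0.16, all within 2-fold, and Jund came to -0.03 when both libraries were rescaled to the same total without mitochondrially encoded genes.

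The sum of the Jun family was 214 FPKM in WT against 220 FPKM in the knockout, so the balance inside it differed while its total was similar. Jun was the first of these genes in WT with 41.0% of the sum and the last in the knockout with 26.3%. Junb went from 24.1% to 35.6% and Jund from 34.9% to 38.1%. The ratio of Junb to Jun was 0.588 in WT and 1.35 in the knockout. Ratios of this kind are taken within a library and do not depend on any scaling between libraries. The Jun family exceeded the Fos family 8.33-fold in WT and 44.6-fold in the knockout. The sources used here do not say whether fragments were counted by strand, and exons of Jund share 877 bases with the antisense gene Gm11175, those of Jun 232 bases with Junos and those of Junb 173 bases with Prdx2, so reads of these partners may be mixed in. In the table Jun lies on chromosome 4, bases 95049034 to 95052222, Junb on chromosome 8, bases 84974484 to 84978718, and Jund on chromosome 8, bases 70698949 to 70700616.

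**Figure D2:**
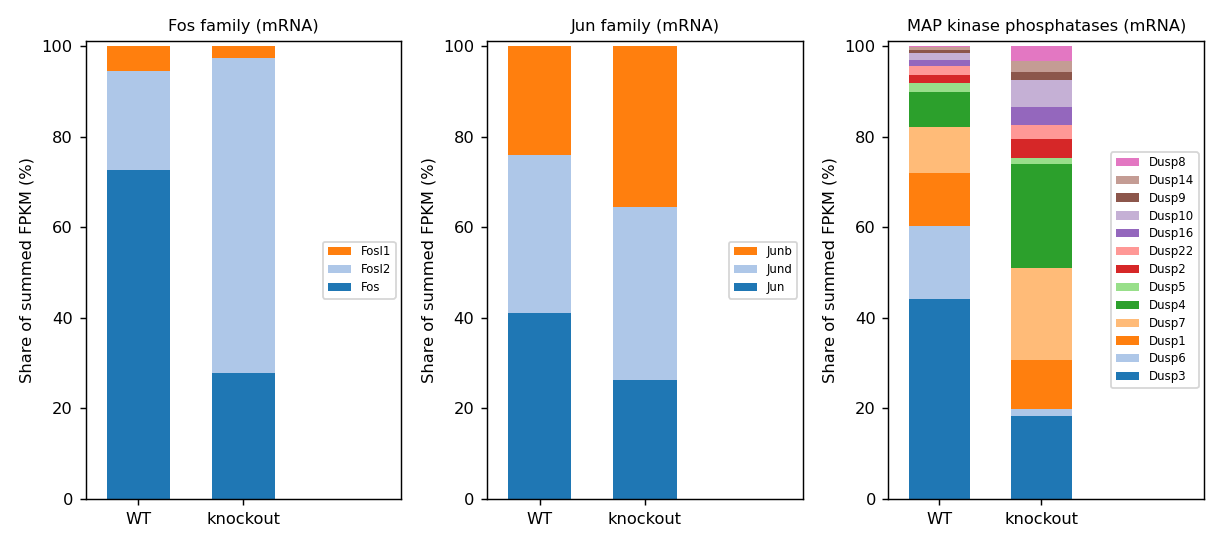
Share of each gene in the summed FPKM of its family (percent, y axis) in the WT and the knockout library, for the Fos family, the Jun family and the MAP kinase phosphatases. Fos is the main Fos gene in WT (72.7%) and Fosl2 in the knockout (69.5%), and Dusp6 goes from 16.1% to 1.42% of the phosphatase sum.

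Maff, a small Maf protein that lacks an activation domain and pairs with Fos and with NRF2 relatives, differed in the opposite direction to Fos. It was at 1.05 FPKM in the WT library against 12.8 FPKM in the knockout library, 12.1-fold higher (interval 8.11 to 17.6), on an estimated 30 and 335 fragments. It stood at 2.74 on the log2(FPKM + 1) scale, where 25 of the 9962 genes stood higher. The other small Maf genes, named after their values were seen, differed less. Mafg was at 20.2 and 14.1 FPKM and Mafk at 8.65 and 10.4 FPKM, so Maff made up 3.52% of the small Maf sum in WT and 34.3% in the knockout. The table places Maff on chromosome 15 from 79347541 to 79359072 (mm10, + strand, ENSMUSG00000042622.13).

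Atf3, a stress-induced factor that as a homodimer represses inflammatory genes, was the most abundant member. Its level was 206 FPKM in WT against 182 FPKM in the knockout, above 98.3% and 97.8% of the listed genes, on an estimated 5976 and 4862 fragments. The values were 1.13-fold apart (interval 1.09 to 1.18), and the log2 fold change of -0.18 became 0.13 relative to the median gene, so its direction depends on the scaling. The gene lies on chromosome 1, bases 191170296 to 191218039. The ratio of Atf3 to Fos was 11.0 in WT and 132 in the knockout.

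Of 18 other AP-1 subunits and basic leucine zipper partners, 16 were listed and 13 counted. On both scales 4 were lower in the knockout library and 0 higher. As deposited, 30.8% were lower, against 13.7% of all genes, and 0% higher, against 3.48%. The median of the 13 was -0.49, against -0.31 for all genes. Jdp2, a repressor that pairs with Jun, was at 22.7 and 4.09 FPKM and stood at -2.22. Batf, an immune-cell partner of Jun, was at 11.8 and 3.67 FPKM. Maf, a large Maf factor of macrophages, was also lower, at 26 and 7.53 FPKM.

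**Figure D3:**
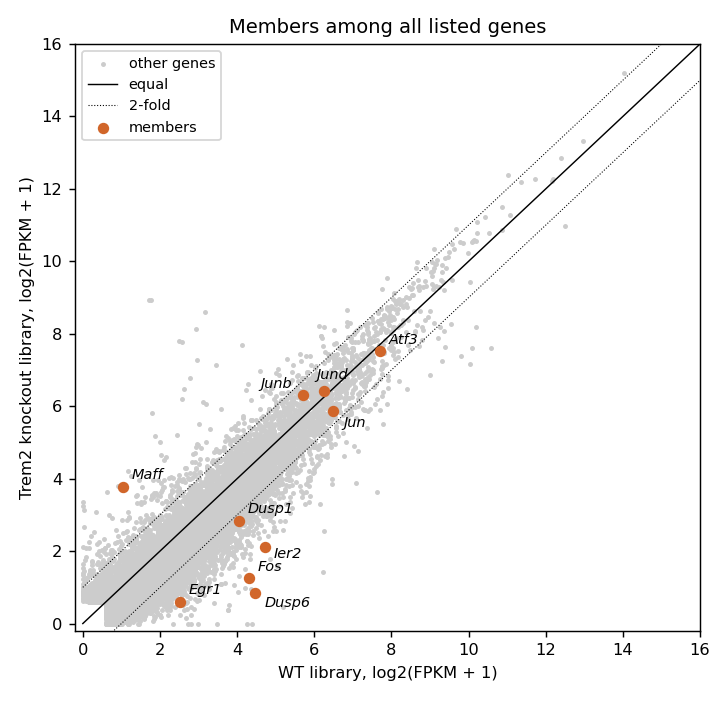
Every listed gene by its level in the WT library (x axis) and the Trem2 knockout library (y axis), both as log2(FPKM + 1), with the members in orange, the line of equality and dotted lines at 2-fold. Dusp6, Fos and Ier2 lie far below the lower 2-fold line, Maff lies above the upper one, and Jun, Junb, Jund and Atf3 lie between the lines in the upper part of the range.

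Ier2, a short nuclear protein of the immediate early class, was at 25.4 FPKM in the WT library against 3.31 FPKM in the knockout library. The knockout value was 7.66-fold lower (interval 5.84 to 10.04), on an estimated 521 and 63 fragments. The log2 fold change was -2.61, and 31 genes stood lower. The table places it on chromosome 8, bases 84661331 to 84662852 of mm10, - strand (ENSMUSG00000053560.4).

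Egr1, a zinc finger factor and a classical target of ERK through SRF and the ternary complex factors, was at 4.70 FPKM in WT against 0.522 FPKM in the knockout. It was 9.0-fold lower (interval 6.14 to 13.7) on an estimated 284 and 29 fragments. Egr1 was the least abundant member in the knockout library, and its log2 fold change of -1.91 understates the ratio because both values are low. It lies on chromosome 18, bases 34859823 to 34864984. The ratio of Ier2 to Egr1 was 5.4 in WT and 6.35 in the knockout, 1.18-fold apart, with 29 fragments behind the lower Egr1 value.

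Other immediate early genes included some that were lower and some that were higher. Of 34 named, 30 were listed and counted, 4 were lower (13.3%, against 13.7% of all genes) and 3 higher (10%, against 3.48%), with a median of -0.07. Relative to the median gene 3 were lower and 4 higher. Those lower were Klf2, a factor of quiescence (6.24 and 1.25 FPKM), Trib1, a pseudokinase that binds COP1 (3.14 and 0.294 FPKM), the growth factor-induced Myc (9.34 and 2.35 FPKM) and Rhob, a small GTPase (64.0 and 28.3 FPKM). Those higher were Cyr61, a matricellular protein (7.60 and 68.2 FPKM), Gadd45b, a stress sensor (73.7 and 203 FPKM), and Egr2, a zinc finger relative of Egr1 (2.34 and 6.17 FPKM). Rhob, Gadd45b and Egr2 were named after their values were seen. Egr1 and Egr2 thus differed in opposite directions, and Egr2 was the higher of the pair in the knockout library. Genes named after their values were seen as examples within 2-fold were Ier3, at 38.6 and 33.1 FPKM, Ier5, at 33.5 and 28.4 FPKM, and Zfp36, at 22.6 and 19.4 FPKM.

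Dusp6 (MKP-3), a cytoplasmic phosphatase selective for ERK, was the member furthest apart. It was at 21.1 FPKM in the WT library against 0.804 FPKM in the knockout library, which was 26.3-fold lower (interval 18.6 to 39.3), on an estimated 892 and 31 fragments. Its log2 fold change was -3.62, and 6 of the 9962 genes stood lower. The table places it on chromosome 10, bases 99263231 to 99267489 of mm10, + strand (ENSMUSG00000019960.8).

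Dusp1 (MKP-1), a nuclear phosphatase that acts mainly on p38 and JNK, differed less. It was at 15.5 FPKM in WT against 6.16 FPKM in the knockout, which was 2.52-fold lower (interval 2.14 to 2.97), on an estimated 563 and 206 fragments. Its log2 fold change was -1.20 as deposited and -0.90 relative to the median gene, so it passed 2-fold in the first count only. The gene lies on chromosome 17, bases 26505590 to 26508519. The ratio of Dusp1 to Dusp6 was 0.733 in WT and 7.65 in the knockout.

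All 11 other dual-specificity phosphatases that were named were listed. Dusp3 (VHR), the most abundant in WT, was at 57.9 and 10.4 FPKM and stood at -2.37. Dusp5, a nuclear ERK phosphatase, was at 2.57 and 0.748 FPKM. Dusp4, also nuclear, was at 10.01 and 13.1 FPKM, and Dusp7, a cytoplasmic relative of Dusp6, at 13.4 and 11.5 FPKM. Dusp8, which acts on JNK, was higher in the knockout library at 0.354 and 1.87 FPKM. Dusp10 was at 1.75 and 3.42 FPKM, Dusp16 at 2.01 and 2.27 FPKM and Dusp2 at 2.49 and 2.34 FPKM. Dusp9, Dusp14 and Dusp22 lay between 0.934 and 2.36 FPKM in both libraries.

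Of the 10 of these genes that could be counted, 2 were lower (20%, against 13.7% of all genes) and 1 higher (10%, against 3.48%). Relative to the median gene the counts were 1 and 1. The median of the 10 was 0.03 as deposited. The sum over all 13 phosphatases was 131 FPKM in WT against 56.7 FPKM in the knockout. Dusp3 and Dusp6 gave 44.1% and 16.1% of it in WT, and Dusp4 and Dusp7 gave 23.1% and 20.2% of it in the knockout.

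**Figure D4:**
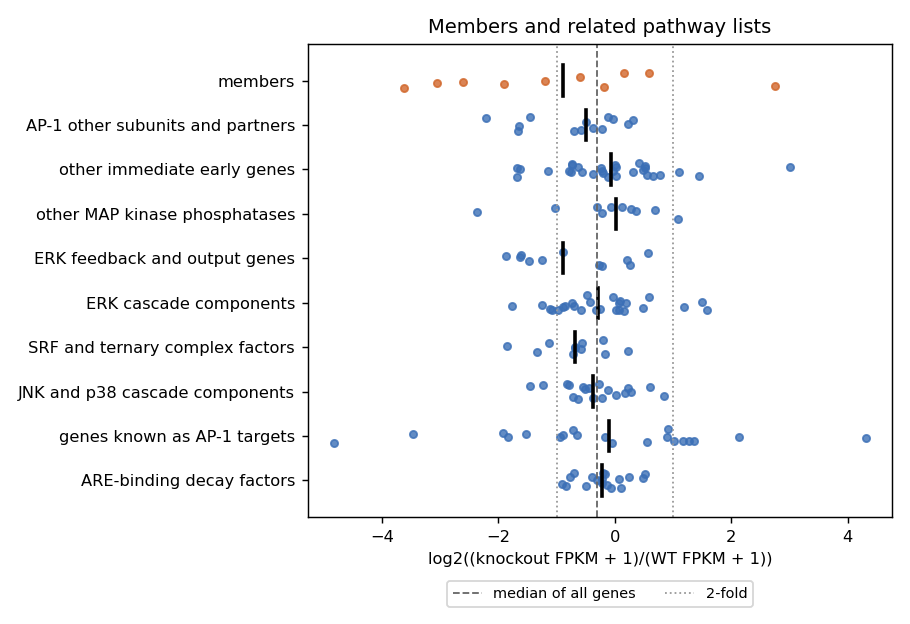
Log2((knockout FPKM + 1)/(WT FPKM + 1)) of the members (orange) and of each counted gene in the related lists (blue), with a black bar at each median, a dashed line at the median of all genes and dotted lines at 2-fold. The members, chosen with these values known, have a median of -0.90. The ERK feedback and output genes have a median of -0.89, or -0.28 among those with a mean of at least 5 FPKM. Genes known as AP-1 targets lie on both sides of the dotted lines.

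Genes known as feedback and output of ERK were next examined, as the readouts closest to Dusp6. Of 19 named, 14 were listed and 11 counted. Of the 11, 5 were lower (45.5%, against 13.7% of all genes) and 0 higher (0%, against 3.48%). Relative to the median gene the counts were 4 and 0. The median was -0.89, but it was -0.28 among genes with a mean of at least 5 FPKM, where all genes had -0.24. With a pseudocount of 5 FPKM it was -0.35, where all genes had -0.18. With 0.1 FPKM it was -1.39, where all genes had -0.36. Etv5, a PEA3 family factor, was at 3.75 and 0.303 FPKM. The inhibitors of RAF activation Spred1 and Spred2 were lower too, Spred1 at 11.4 and 3.03 FPKM and Spred2 at 4.97 and 1.14 FPKM. Myc, given above, and Spry2, a receptor feedback inhibitor at 12.3 and 4.61 FPKM and named after its values were seen, completed the group. Dusp6 belongs to the same feedback class and was kept out of the list.

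The genes of the cascade itself went both ways. Of 26 ERK cascade components, 4 were lower (15.4%, against 13.7% of all genes) and 3 higher (11.5%, against 3.48%), with a median of -0.28. Relative to the median gene 1 was lower and 3 higher. The ERK kinase gene Mapk3 (ERK1) differed little, at 95.8 and 93.4 FPKM. The ratio of Mapk3 to Dusp6 was 4.53 in WT and 116 in the knockout. The adaptor Grb2 was at 58.4 and 167 FPKM, and Mknk2, a kinase downstream of ERK, at 27.2 and 83.4 FPKM. Those lower were Rps6ka1 (RSK1), at 13.6 and 3.29 FPKM, Nras, at 25.6 and 10.2 FPKM, Mknk1, at 12.8 and 5.4 FPKM, and the RAS inhibitor Rasa1, at 6.11 and 2.38 FPKM. Mapk3, Mknk1 and Rasa1 were named after their values were seen. FPKM values measure transcripts, and the activity of these kinases was not measured.

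The genes for SRF, the ternary complex factors and CREB relatives, which bind the promoters of immediate early genes, numbered 11. Of the 11, 3 were lower (27.3%, against 13.7% of all genes) and 0 higher (0%, against 3.48%). Relative to the median gene the counts were 2 and 0. The median was -0.68, against -0.31 for all genes. With a pseudocount of 5 FPKM it was -0.27, against -0.18 for all genes. Creb1, whose protein is known to bind the CRE, was at 4.70 and 0.590 FPKM. Its relative Atf1, named after its values were seen, was within 2-fold at 43.8 and 37.9 FPKM. Binding to the promoters shown above was not measured. Elk3 was at 16.8 and 6.02 FPKM and the SRF coactivator Mkl1 at 9.26 and 3.72 FPKM. Srf itself, chosen with its values known, was at 7.94 and 4.54 FPKM. Of the 19 counted JNK and p38 cascade components 2 were lower (10.5%, against 13.7% of all genes) and 0 higher (0%, against 3.48%). Those lower were Rps6ka4 (MSK2), at 13.2 and 4.13 FPKM, and Map3k11, at 11.7 and 4.39 FPKM. Relative to the median gene the counts were 1 and 1. The median of the 19 was -0.38.

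Genes known as AP-1 targets in other settings spread in both directions. Of the 20 listed, 6 stood higher (30%, against 3.48% of all genes) and 5 lower (25%, against 13.7%), with a median of -0.11. Relative to the median gene 8 stood higher and 5 lower. Serpinb2 (PAI-2) stood at -4.82. The collagenase gene Mmp13 was at 5.45 and 0.702 FPKM, whereas the stromelysin gene Mmp10 was at 0.416 and 2.17 FPKM. The urokinase gene Plau was at 45.9 and 112 FPKM and the metalloproteinase inhibitor gene Timp1 at 64.2 and 132 FPKM. The integrin gene Itgax was at 10.02 and 27.1 FPKM. Mmp13, Mmp10, Plau, Timp1 and Itgax were named after their values were seen. The list mixes genes of several cell types, and the fibroblast markers, given above, went both ways with a higher sum in the knockout library. Their part in these values was not tested.

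Gene structure was compared next. Of the 8 members whose gene model matched GENCODE M21 by version and position, 7 span less than 6000 bases. The same holds for 14.3% of the 8668 genes with such a match and a mean of at least 1 FPKM. Among the 8 members, 3 (Jun, Jund and Ier2) have no intron, as have 2% of the 8668 genes. Atf3, at 47744 bases, is the exception among the 8, and Maff, whose model did not match, also spans more than 6000 bases by its coordinates in the table. The median log2 fold change was -0.15 in the 976 genes under 5000 bases. It was -0.53 in the 173 genes with no intron, among which Ier2 stood far lower and Jun and Jund close to or above it.

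Transcripts of immediate early genes are often short-lived because proteins such as ZFP36 bind AU-rich elements in the 3′ untranslated region. The AUUUA pentamer, written ATTTA in the transcript files, is the usual unit of such elements. A run of 26 bases with the most pentamers is shown from that region of GENCODE M21 transcripts, with ATTTA in capitals. Shown are Fos, Dusp1 and Dusp6, from the 5 members counted as lower, and Maff, the 1 counted as higher. Ier2, which has no pentamer, and Egr1 were also lower and are not shown.
Fos: tttttattgtgttttcaATTTATTTA
Dusp1: catgggagctggtccttATTTATTTA
Dusp6: ggtgtaaagttttgagctggaATTTA
Maff: ataaatcacATTTAatcttatATTTA

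Fos, Jun, Maff and Dusp1 have 4 pentamers each, Atf3 has 3, Junb and Egr1 have 2, Jund and Dusp6 have 1 and Ier2 has 0. Per length, Dusp1 had 5.80 pentamers per kilobase, a density above that of 95.5% of genes, and Fos had 4.91, above 93.4%. Junb followed with 4.12 (89.9%), Maff with 3.28 (82.8%), Jun with 3.24 (82.5%), Atf3 with 2.53 (73.4%) and Jund with 1.88 (61.9%). Egr1 had 1.64 (57.3%), Dusp6 0.84 (39.2%) and Ier2 0, so members lower in the knockout library were found at both ends. Transcript decay was not measured. Over all genes the median log2 fold change was -0.31 for the 3050 genes with none and -0.25 for the 1667 genes with 6 or more. The list of decay factors held 18 genes, for proteins that bind such elements, remove the poly(A) tail or otherwise act in transcript decay. Of these 0 were higher and 0 lower, against 3.48% and 13.7% of all genes. The 4 furthest from 0, all below WT by less than 2-fold on that scale, were Hnrnpd (10.1 and 4.92 FPKM), Exosc10 (15.6 and 8.31 FPKM), Khsrp (18.8 and 10.7 FPKM) and Cnot6 (11.2 and 6.56 FPKM).

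The genes whose levels lay closest to those of Dusp6 and Fos were found by distance in log2(FPKM + 1) over both libraries, a measure of level and difference in 2 libraries only. Closest to Dusp6 were Dhrs9 (distance 0.154), Gas1 (0.298) and Fos itself (0.433). Closest to Fos were Evi2 (0.0635), Sesn2 (0.262) and Steap4 (0.272).

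**Figure D5:**
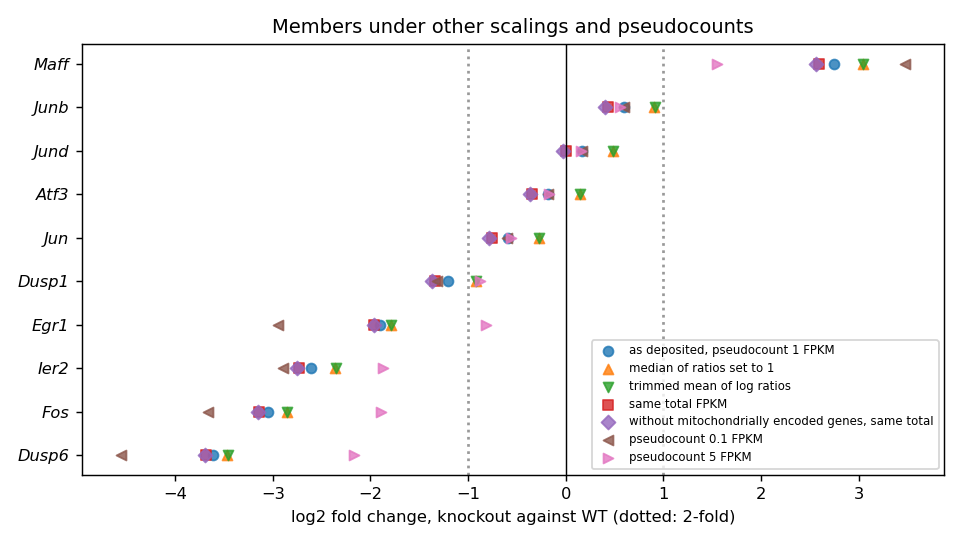
Log2 fold change of each member (x axis) as deposited with a pseudocount of 1 FPKM and under other scalings and pseudocounts, with dotted lines at 2-fold. Dusp6, Fos and Ier2 stay below the lower line and Maff above the upper line under each setting drawn, Dusp1 and Egr1 cross the lower line under some, and Atf3 and Jund cross 0.

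Across other scalings, pseudocounts and thresholds, Dusp6 ranged from -4.55 to -2.17, Fos from -3.67 to -1.89, Ier2 from -2.90 to -1.87 and Maff from 1.55 to 3.48 on the log2 scale. Egr1 ranged from -2.95 to -0.81 and Dusp1 from -1.37 to -0.88, so that these lost 2-fold under some settings.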

How the data were processed

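Per the file headers, the deposited values are FPKM, in a single table that gives WT and knockout a column each, and both columns matched a sample by its description. Libraries were strand-marked with dUTP, per the labels' protocols, and the submitters' processing notes name the build mm10. For the aligner, quantifier and annotation, the entry is: not given in the sources used here. Every gene reaches 0.501 FPKM or more in at least 1 library. Members, lists and tests were chosen with earlier results of these data known. Genes were counted by size at 2-fold on log2(FPKM + 1). Named were all members, the Fos family and phosphatases, up to 4 genes per list with the largest absolute fold change, whole marker lists in sum, and the 3 nearest genes of 2 members; others are said to be named after their values were seen. Values of some genes that the lists hold are not reported here.

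Depth was estimated from low values of genes with 1 transcript. FPKM times merged exon length lay within 0.1 of whole multiples of a step in 56.0% of 91 WT and 69.9% of 133 knockout values. As a fixed setting, 300 steps were taken as 1 fragment, and every fragment count and interval rests on it. The lengths of Maff and Dusp1, whose models differ from GENCODE M21, were taken as the shortest length at which value times length has 6 decimals in both libraries (2119 and 2697 bases). The 2-fold rule and the counting intervals were tried on simulated fragments drawn with this depth taken as given. The depth itself was not tested. Alternatives were other pseudocounts, filters, scalings and thresholds. The tools were scipy 1.17.1, numpy 2.4.6, pandas 2.3.3 and matplotlib 3.10.9, under Python 3.11.15.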

Additional observations from a re-analysis of the deposited data

How the results depend on the processing

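No paired analysis was possible because there is only a single library in either group. Of 90 member values under 9 settings, 77 kept their direction and side of the threshold, 7 no longer reached the threshold of the setting, 2 newly passed it (Jun and Junb at 1.5-fold) and 4 turned. Of the 7, Egr1 and Dusp1 at 4-fold kept their values. Atf3 turned to 0.14 with the median of ratios set to 1, 0.14 with the trimmed mean of log ratios and 0.13 relative to the median gene, a setting added after seeing the data. Jund turned to -0.025 when mitochondrially encoded genes were left out and totals made equal. The cause was not tested.

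Members counted as lower were 3 with a pseudocount of 5 FPKM and 3 at 4-fold, and those higher were 2 at 1.5-fold, in place of 5 and 1. Over all genes, 347 were higher and 1364 lower. With a pseudocount of 0.1 FPKM 2075 were lower, and with 5 FPKM 174 were higher and 394 lower. With the median of ratios set to 1 the counts were 758 and 816, with the trimmed mean 766 and 816, and relative to the median gene 763 and 655. At 1.5-fold they were 995 and 3254 and at 4-fold 51 and 113, and with a mean of at least 5 FPKM 746 were lower. In the 9 pathway lists 13 genes were higher (8.61%, against 3.48% of all genes) and 28 lower (18.5%, against 13.7%). With a pseudocount of 5 FPKM 12 were lower, at 1.5-fold 20 were higher and 54 lower, and at 4-fold 3 and 4.

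List medians turned in 14 of 108 values, and most medians moved by more than 1.5 times under some scaling or pseudocount. Other phosphatases came to -0.084 with equal totals, -0.19 without mitochondrially encoded genes, -0.21 with a mean of at least 5 FPKM and -0.15 as a mean. With the median of ratios, the trimmed mean and the median of all genes in turn, other immediate early genes came to 0.19, 0.20 and 0.23, AP-1 targets to 0.18, 0.18 and 0.20, and decay factors to 0.084, 0.087 and 0.094. ERK cascade components came to 0.022 relative to the median gene. Without the most abundant gene of each family, Fosl2 made up 79.7% of the Fos family in WT and 96.4% in the knockout, Jun 63.0% and 42.5% of its family, and Dusp6 28.7% and 1.74% of the phosphatases.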
